A study of Arabidopsis thaliana with 6 samples.

Results

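The histone genes of Arabidopsis thaliana were compared between epiRIL12 and the reference accession Col. The set holds 43 genes, listed by locus: 3 linker histone H1 genes, 9 H3 genes, 13 H2A genes, 10 H2B genes and 8 H4 genes. Of these, 40 carried a value, out of 29670 loci in all. The other 3 genes, the H4 loci AT3G46320, AT1G07820 and AT3G45930, match no locus name in the values used and are not analysed here. Plants of an epigenetic recombinant inbred line (epiRIL) have a methylation-deficient and a Col ancestor, and each line fixes its own mix of chromosome stretches from them. For this family the deficient ancestor is known from the field to lack MET1, the enzyme that copies CG methylation, and the series title speaks of lost DNA methylation and recombination. Each genotype had 3 arrays of total RNA, from untreated plants 14 days old grown in long days. The 3 epiRIL12 samples are all of 1 line, so genotype and line cannot be told apart. Nothing says that replicates are separate cultures of plants, so p-values measure the spread among these arrays only, which may be technical, and 3 arrays a group limit the precision.

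Histones are the proteins around which DNA is wrapped. A core particle holds H2A, H2B, H3 and H4, and the linker histone H1 binds the DNA where it enters and leaves the particle. In plants as in animals, replication-dependent histones such as H3.1 are made mainly while DNA is copied, whereas replacement variants such as H3.3 are made and exchanged throughout the cell cycle. Some variants mark places: CENH3 sits at centromeres, H2A.W in silent heterochromatin, H2A.Z at gene starts and along responsive genes, and H2A.X is phosphorylated at DNA breaks. In Arabidopsis, H2A.W and H1 act beside DNA methylation in keeping repeats silent.

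The labelled source is seedlings, taken whole, while the labelled tissue is leaves of the rosette. The 5 leaf markers chosen for this check, among them RBCS1A, stood at log2 values from 13.59 to 15.45 in epiRIL12 and from 13.79 to 15.47 in Col, at the top of the arrays. The 6 root markers lay between 4.04 and 6.93 in epiRIL12 and between 4.37 and 6.78 in Col. The 3 shoot meristem markers lay between 4.15 and 6.10 in epiRIL12 and between 3.67 and 6.28 in Col, the 4 pollen markers between 4.32 and 5.59 in epiRIL12 and between 4.14 and 5.67 in Col, and the 4 seed markers between 4.84 and 6.92 in epiRIL12 and between 4.79 and 7.02 in Col. Array medians ran from 6.80 to 6.84, and lower quartiles from 4.71 to 4.90. A log2 value is an array signal in which 1 unit is 2-fold. Values of different genes come from different probes, so setting them against each other or against the array median gives only a rough guide to level. In whole tissue, fewer cells of a type and less RNA per cell cannot be told apart.

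No histone gene differed between epiRIL12 and Col at an adjusted p under 0.05 (limma, Benjamini-Hochberg over all loci): 0 of 40 were higher and 0 of 40 lower in epiRIL12. Over all 29670 loci, 264 were higher in epiRIL12 (0.89%) and 25 lower (0.0843%), together 0.974%. At an unadjusted p under 0.05, 2 of the 40 histone genes passed (HTR8 and AT5G59690), beside 7.04% of all loci. Differences, always epiRIL12 minus Col, ran from -0.20 for HTA5 to 0.53 for the H4 gene AT5G59690, with a median of 0.06, against -0.02 over all loci. Of the 40 differences 26 were above 0 (65%), against 43.4% of all loci.

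The intervals give the range of differences that the deposited values and their spread among these arrays allow. They do not bound every estimate: the authors' deposited log2 difference for H1.3, 0.72, lies above its interval of -0.04 to 0.68. All 40 histone genes had a 95% interval (limma) inside -1 to 1 on the log2 scale, that is, under 2-fold either way, as did 91.8% of all loci. For 21 of the 40 (52.5%) the interval lay inside -0.5 to 0.5, or 1.41-fold, beside 59.9% of all loci. The intervals are each at 95% and not adjusted for their number.

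**Figure D1:**
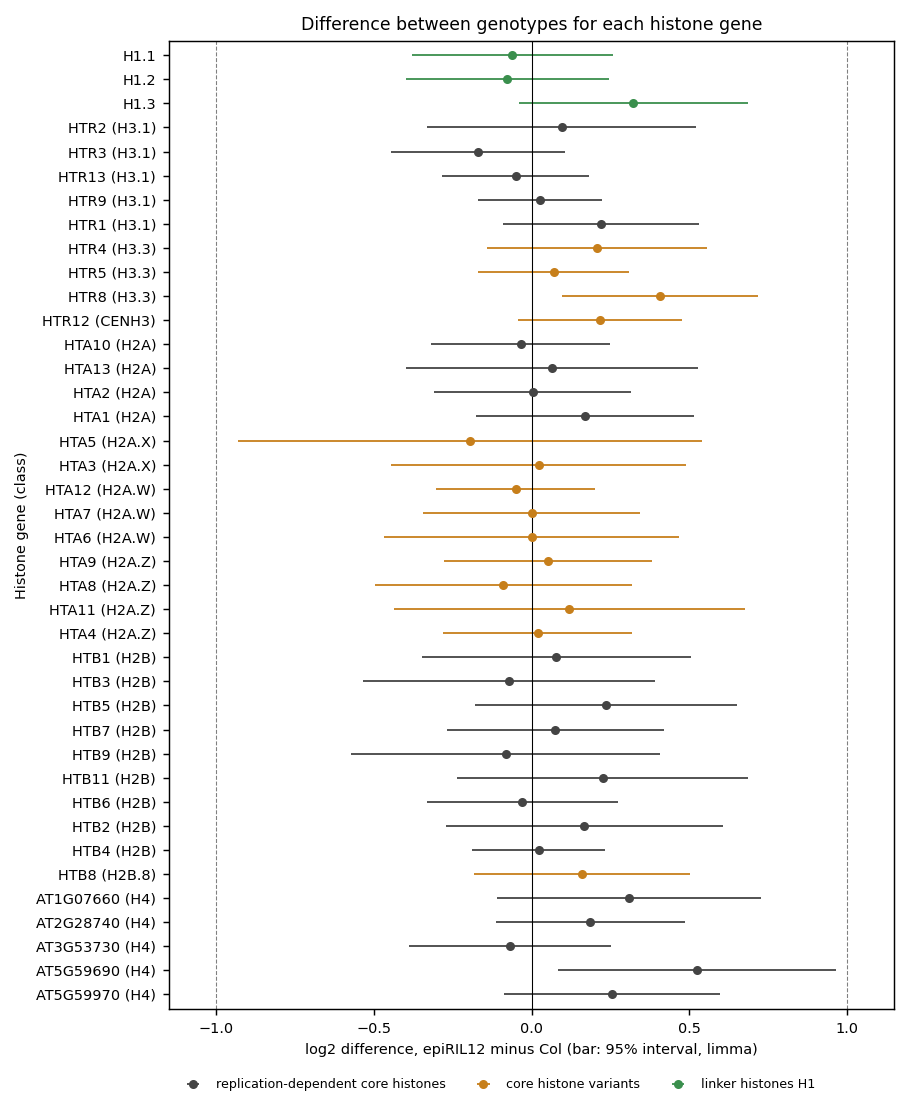
Difference between genotypes (log2, epiRIL12 minus Col) for the 40 measured histone genes, by class. Points are differences, bars are 95% intervals from limma, and dashed lines mark 2-fold. All bars lie between the dashed lines, and those of HTR8 and AT5G59690 do not reach 0.

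The 23 measured replication-dependent genes (H3.1, canonical H2A, H2B and H4, of 26 listed) had a median difference of 0.08, with 16 above and 7 below 0. The 14 core variants (H3.3, CENH3, H2A.X, H2A.W, H2A.Z and HTB8) had a median of 0.04, with 9 above and 5 below 0. The 3 linker genes had a median of -0.06. Without epiRIL12 replicate 2 these medians were 0.18, 0.16 and 0.06, and without epiRIL12 replicate 1 they were 0.0015, 0.03 and -0.15, so their size, and for the linker genes their sign, rested on single arrays. Without Col replicate 3 they were 0.02, 0.04 and 0.0049, and without epiRIL12 replicate 3 they were 0.02, 0.003 and -0.08. Without Col replicate 2 they were 0.096, 0.09 and -0.03, and without Col replicate 1 the linker median was -0.11.

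The linker histones compact chromatin between core particles. H1.1 (AT1G06760), a main H1 of Arabidopsis, stood at 11.64, 11.19 and 11.47 in epiRIL12 and at 11.40, 11.55 and 11.52 in Col. H1.2 (AT2G30620), the other main H1, stood at 8.94, 8.57 and 8.87 in epiRIL12 and at 8.75, 8.82 and 9.04 in Col. For both genes the lowest of the 6 values was that of epiRIL12 replicate 2, and the groups overlapped. The differences were -0.06 for H1.1 (SE 0.13) and -0.08 for H1.2 (SE 0.13).

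H1.3 (AT2G18050, HIS1-3) encodes a shorter linker variant known to be induced by drought and low light. Its values were 5.69, 5.14 and 5.36 in epiRIL12 and 5.01, 5.17 and 5.05 in Col, below the array median on all 6 arrays. The epiRIL12 values were higher on average, with an overlap at epiRIL12 replicate 2 and Col replicate 2. The difference was 0.32 (SE 0.15, 95% interval -0.04 to 0.68, limma adjusted p = 0.783), and it was 0.18 without epiRIL12 replicate 1. In the authors' deposited table H1.3 has a log2 difference of 0.72 and an unadjusted p of 0.0282, a larger difference than the value table gives.

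Replication-dependent H3.1 is encoded by 5 genes, all with measured values. HTR1 (AT5G65360) stood at 10.61, 10.21 and 10.45 in epiRIL12 and at 10.16, 10.12 and 10.33 in Col. HTR2 (AT1G09200) stood at 11.61, 10.97 and 11.52 in epiRIL12 and at 11.20, 11.28 and 11.34 in Col. HTR3 (AT3G27360) stood at 9.75, 9.55 and 9.82 in epiRIL12 and at 9.75, 10.001 and 9.89 in Col. All 3 genes overlapped between genotypes, with differences of 0.22 for HTR1 (SE 0.13), 0.09 for HTR2 (SE 0.18) and -0.17 for HTR3 (SE 0.12). The genes HTR9 (AT5G10400) and HTR13 (AT5G10390) lie side by side on chromosome 5. HTR9 stood at 10.23, 10.26 and 10.32 in epiRIL12 and at 10.26, 10.26 and 10.21 in Col, the tightest spread of any histone gene (pooled SD 0.037). HTR13 stood at 10.20, 10.01 and 10.23 in epiRIL12 and at 10.21, 10.23 and 10.15 in Col. Neither gene of the pair separated the genotypes: the difference was 0.03 for HTR9 (SE 0.08) and -0.05 for HTR13 (SE 0.10). Over the 5 H3.1 genes, 3 differences were above and 2 below 0, with a median of 0.03.

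The H3.3 genes encode the replacement H3 that is loaded outside DNA copying, largely along transcribed genes. HTR8 (AT5G10980) stood at 10.55, 10.15 and 10.30 in epiRIL12 and at 9.93, 9.81 and 10.03 in Col. Every epiRIL12 value lay above every Col value. The difference was 0.41 (SE 0.13), a ratio of 1.33 with a 95% interval of 1.07 to 1.65, and it did not pass the test over all loci (limma adjusted p = 0.515, and 0.304 to 0.803 over the alternatives tried). Without epiRIL12 replicate 1 the difference was 0.30 and without epiRIL12 replicate 2 it was 0.50. The other H3.3 genes, HTR4 (AT4G40030) and HTR5 (AT4G40040), are neighbours on chromosome 4. HTR4 stood at 11.44, 11.10 and 11.43 in epiRIL12 and at 11.17, 10.90 and 11.28 in Col. HTR5 stood at 11.74, 11.73 and 11.92 in epiRIL12 and at 11.64, 11.72 and 11.82 in Col. Both overlapped between genotypes, with differences of 0.21 for HTR4 (SE 0.15) and 0.07 for HTR5 (SE 0.10). All 3 H3.3 differences were thus above 0, with a median of 0.21, beside 0.03 for H3.1; this contrast of classes was not tested. Leaving out each array in turn, the H3.3 median ran from 0.10, without Col replicate 2, to 0.32, without epiRIL12 replicate 2. The H3.1 median ran from -0.03, without epiRIL12 replicate 1, to 0.04, and was 0.0046 without epiRIL12 replicate 3 and 0.01 without Col replicate 3.

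CENH3 (HTR12, AT1G01370) is the H3 variant on which centromeres are built. It stood at 8.70, 8.62 and 8.92 in epiRIL12 and at 8.46, 8.58 and 8.56 in Col. The lowest epiRIL12 value lay just above the highest Col value. The difference was 0.22 (SE 0.11, 95% interval -0.04 to 0.48, limma adjusted p = 0.810), and it was 0.13 without epiRIL12 replicate 3.

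HTR8, CENH3 and AT5G59690 were the 3 of 40 histone genes whose groups did not overlap, all higher in epiRIL12. Over all loci, 5.19% did not overlap with epiRIL12 higher and 6.89% with epiRIL12 lower, 12.1% in all. The 40 histone genes held 3 such genes higher and 0 lower in epiRIL12.

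**Figure D2:**
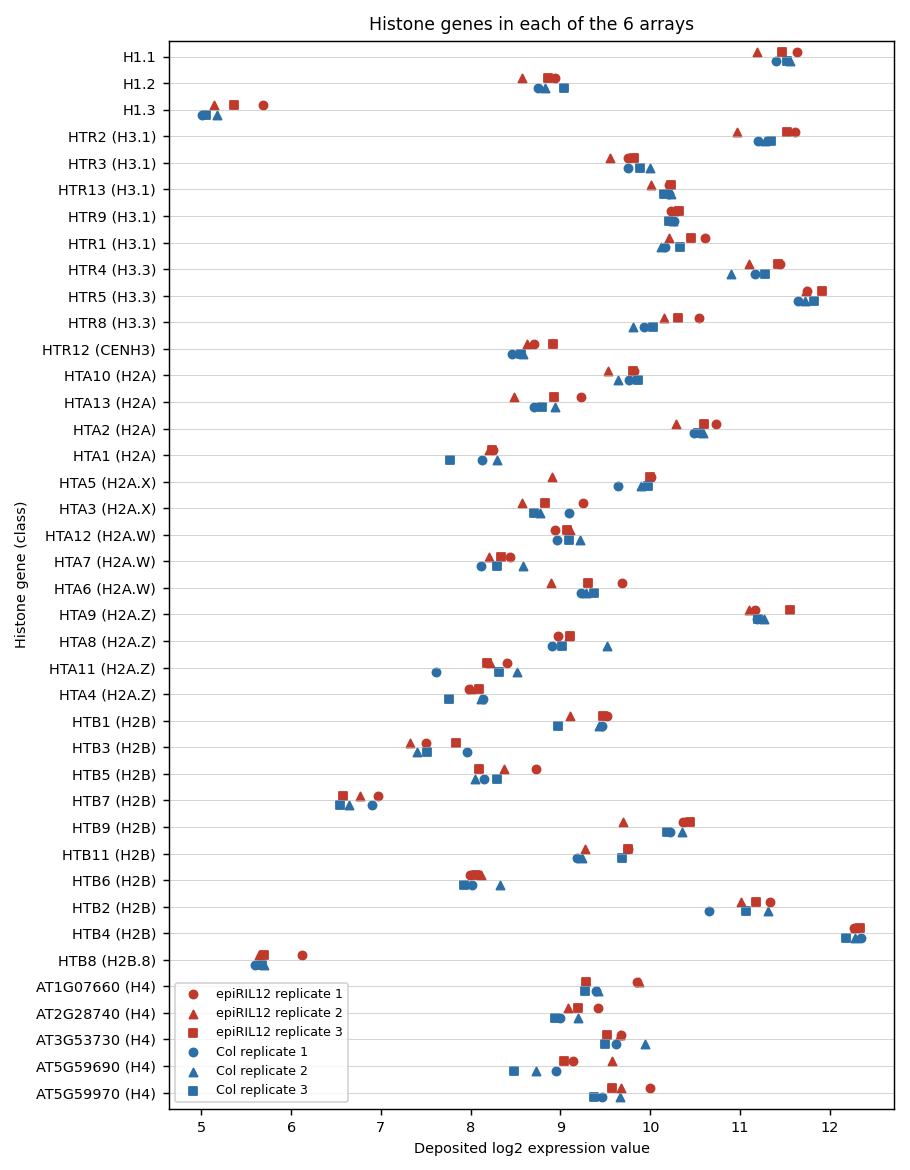
Deposited log2 value of each measured histone gene on the 6 arrays. Red symbols are epiRIL12 and blue symbols Col, and the shape gives the replicate number. The groups are apart for HTR8, HTR12 (CENH3) and AT5G59690, and HTA5 has a single low epiRIL12 value of 8.90.

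Among the H2A genes, the canonical HTA1, HTA2, HTA10 and HTA13 had differences of -0.03 to 0.17, with 3 above 0 and 1 below. HTA1 (AT5G54640, RAT5), known for its role in transformation of roots by Agrobacterium, had the largest of them. It stood at 8.24, 8.21 and 8.24 in epiRIL12 and at 8.12, 8.29 and 7.76 in Col. HTA13 (AT3G20670) stood at 9.23, 8.48 and 8.92 in epiRIL12 and at 8.70, 8.94 and 8.80 in Col. The spread lay in Col for HTA1 and in epiRIL12 for HTA13, and the groups overlapped for both. The differences were 0.17 for HTA1 (SE 0.14) and 0.06 for HTA13 (SE 0.19).

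H2A.X, which carries the phosphorylation mark of DNA breaks, is encoded by HTA3 and HTA5. HTA5 (AT1G08880) stood at 10.01, 8.90 and 10.001 in epiRIL12 and at 9.64, 9.89 and 9.97 in Col. Its epiRIL12 replicate 2 lay 1.11 below the highest epiRIL12 value, the widest range within a genotype of any histone gene in epiRIL12; 0.366% of the 10395 loci with a mean value of 8 or more had a wider epiRIL12 range. The difference of -0.20 (SE 0.31) rested on that array and was 0.17 without it (limma adjusted p = 0.978 with and 0.898 without). HTA3 (AT1G54690) stood at 9.25, 8.57 and 8.83 in epiRIL12 and at 9.09, 8.77 and 8.71 in Col, a difference of 0.02 (SE 0.19).

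H2A.W is the variant of silent heterochromatin. HTA6 (AT5G59870) stood at 9.68, 8.90 and 9.30 in epiRIL12 and at 9.23, 9.28 and 9.37 in Col. HTA7 (AT5G27670) stood at 8.44, 8.21 and 8.34 in epiRIL12 and at 8.11, 8.58 and 8.29 in Col. HTA12 (AT5G02560) stood at 8.94, 9.10 and 9.08 in epiRIL12 and at 8.96, 9.22 and 9.10 in Col. The groups overlapped for all 3 genes, and the largest difference in size was -0.05, for HTA12. The 95% intervals were -0.47 to 0.47 for HTA6, -0.34 to 0.34 for HTA7 and -0.30 to 0.20 for HTA12.

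H2A.Z is exchanged into chromatin by the SWR1 complex. HTA8 (AT2G38810) stood at 8.97, 9.10 and 9.11 in epiRIL12 and at 8.91, 9.52 and 9.01 in Col. HTA9 (AT1G52740) stood at 11.16, 11.10 and 11.55 in epiRIL12 and at 11.19, 11.27 and 11.20 in Col. HTA11 (AT3G54560) stood at 8.41, 8.22 and 8.18 in epiRIL12 and at 7.62, 8.52 and 8.31 in Col. Each of these 3 genes overlapped between genotypes, with 1 array away from the rest: Col replicate 2 for HTA8, epiRIL12 replicate 3 for HTA9 and Col replicate 1 for HTA11. HTA4 (AT4G13570), a less studied gene of the H2A.Z type, stood at 7.98, 7.998 and 8.09 in epiRIL12 and at 8.13, 8.11 and 7.76 in Col. The 4 differences ran from -0.09 for HTA8 to 0.12 for HTA11, with a median of 0.04.

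The 9 canonical H2B genes had differences of -0.08 to 0.24, with 6 above and 3 below 0 and a median of 0.08. The 2 largest were HTB5 and HTB11. HTB5 (AT2G37470) stood at 8.72, 8.38 and 8.09 in epiRIL12 and at 8.14, 8.04 and 8.29 in Col. HTB11 (AT3G46030) stood at 9.76, 9.27 and 9.75 in epiRIL12 and at 9.19, 9.24 and 9.69 in Col. Both groups overlapped, with differences of 0.24 for HTB5 (SE 0.17) and 0.22 for HTB11 (SE 0.19). HTB4 (AT5G59910) had the narrowest interval of the H2B genes, -0.19 to 0.23, around a difference of 0.02. HTB7 (AT3G09480) lay near the array median, below it on 4 of 6 arrays. HTB8 (AT1G08170) encodes a divergent H2B known from seeds and sperm, and its values of 6.12, 5.64 and 5.70 in epiRIL12 and 5.59, 5.70 and 5.68 in Col lay below the array median on all 6 arrays. Its difference of 0.16 (SE 0.14) came from epiRIL12 replicate 1, the only value of the 6 above 6.

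The H4 genes encode the most conserved histone, and copies that are alike in sequence may share array signal, which could not be checked here. Of the 5 measured, 4 had differences above 0, with a median of 0.26, the highest of any class with more than 1 gene, though none was called. AT5G59690 stood at 9.14, 9.57 and 9.03 in epiRIL12 and at 8.95, 8.73 and 8.48 in Col. Its groups did not overlap. The difference was 0.53 (SE 0.18), a ratio of 1.44 with a 95% interval of 1.06 to 1.95 (limma adjusted p = 0.595, and 0.456 to 0.821 over the alternatives tried), and it was 0.36 without epiRIL12 replicate 2. In the authors' deposited table this gene has a log2 difference of 0.55 and an unadjusted p of 0.0274; it and H1.3 were the 2 histone genes under 0.05 there, beside 6.55% of all loci. AT1G07660 stood at 9.85, 9.88 and 9.28 in epiRIL12 and at 9.39, 9.42 and 9.28 in Col. Its epiRIL12 replicate 3 equalled the lowest Col value to 2 decimals, and the difference was 0.31 (SE 0.17, limma adjusted p = 0.854). The remaining H4 differences were 0.26 for AT5G59970, 0.19 for AT2G28740 (HIS4) and -0.07 for AT3G53730. Leaving out single arrays, the H4 median ran from 0.13, without epiRIL12 replicate 1, to 0.34.

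The 36 histone genes with a mean value of 8 or more had a median pooled SD between arrays of 0.183, against 0.108 over the 10395 loci at that level. Within epiRIL12 their median SD was 0.193, against 0.099 over those loci, and within Col it was 0.128, against 0.097. The 3 epiRIL12 arrays ordered many of these genes alike. Replicate 2 gave the lowest of the 3 epiRIL12 values in 24 of the 36 genes (66.7%), against 42.2% of loci at that level. The same held for 11 of 15 S-phase genes (73.3%), 4 of 5 leaf markers and 3 of 5 mitosis genes, so it was not particular to histone genes. Other lists showed it less often, but most of them lie at lower values. In the remaining lists the share was at most 37.5% (6 of 16 chaperone genes), with 1 of 7 histone genes outside the set. Over all loci at any level it was 32.5%. The highest gene mean among the root, shoot meristem, pollen, seed and other histone lists was 6.86, so level and list cannot be told apart there. Replicate 1 gave the highest value of all 6 arrays in 16 of the 36 (44.4%), against 15.9% of loci at that level. It did so in 4 of 5 mitosis genes, 3 of 7 histone genes outside the set and 4 of 15 S-phase genes. Among root markers it did so in 2 of 6, and among shoot meristem markers in 1 of 3. The count was 1 of 16 chaperone genes, 0 of 5 leaf markers, and 0 of 4 in each of the remodeller, pollen and seed lists. Over all 40 histone genes, median deviations from each gene's own mean were 0.18 on epiRIL12 replicate 1, -0.10 on replicate 2 and 0.06 on replicate 3. In Col they were -0.07, 0.01 and -0.05 on replicates 1, 2 and 3.

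The classes differed in how often they followed this order. Replicate 2 was the lowest of the 3 epiRIL12 arrays for all 4 canonical H2A genes, all 3 H1 genes, all 3 H3.3 genes, both H2A.X genes and 4 of 5 H3.1 genes. It was the lowest for 1 of 5 H4 genes and 1 of 4 H2A.Z genes. For AT5G59690 it was the highest of all 6 arrays. Mitosis genes deviated in the same order on the epiRIL12 arrays. Their medians over 5 genes were 0.27, -0.14 and 0.06 on replicates 1, 2 and 3. On the Col arrays they deviated about as far, with medians of -0.30, 0.14 and -0.13 on replicates 1, 2 and 3. Their median SD was 0.208 within epiRIL12 and 0.191 within Col. S-phase genes deviated by smaller amounts, with medians over 15 genes of 0.07, -0.04 and 0.04 on the 3 epiRIL12 arrays. In Col these medians were -0.06, 0.07 and -0.04. The median SD of S-phase genes was 0.057 within epiRIL12 and 0.134 within Col. What sets these arrays apart was not tested.

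**Figure D3:**
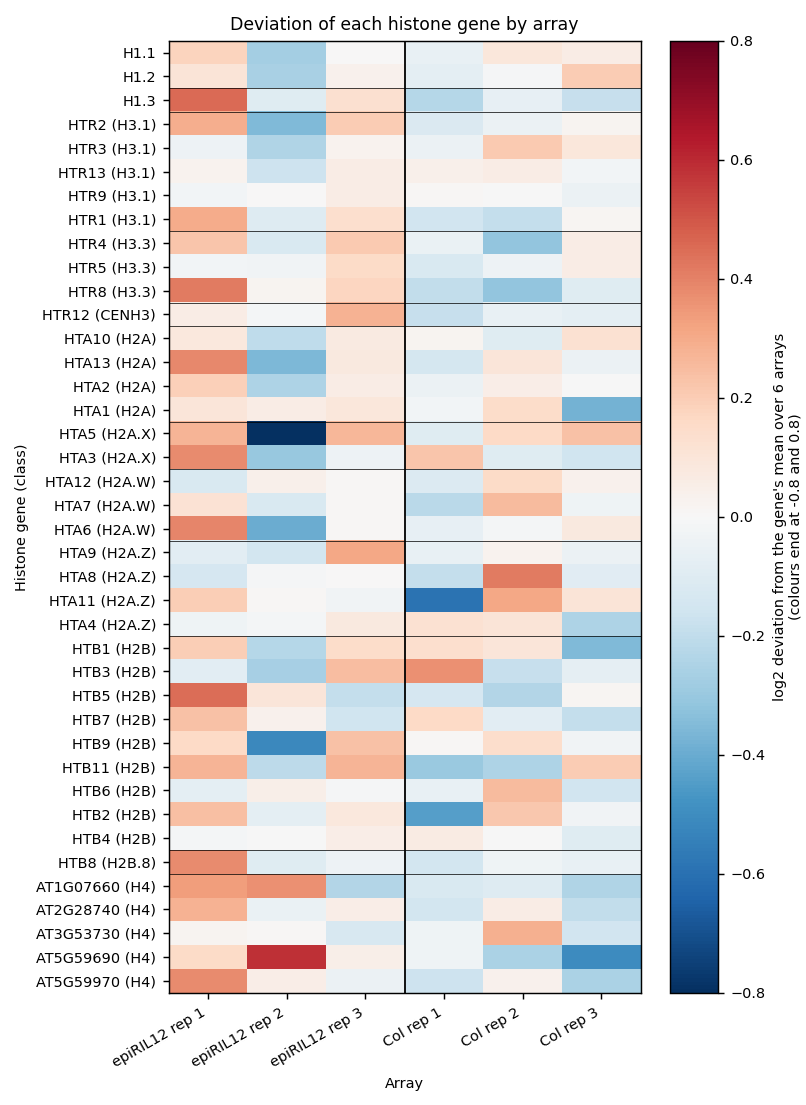
Deviation of each histone gene from its own mean over the 6 arrays (log2, colour), with epiRIL12 arrays left and Col arrays right of the line. Most rows are red on epiRIL12 replicate 1 and blue on epiRIL12 replicate 2, while the H4 genes AT1G07660 and AT5G59690 are among those red on both.

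Histone genes outside the set of 43 comprise 6 further H3 genes (HTR6, HTR7, HTR10, HTR11, HTR14 and HTR15) and the H2B gene HTB10. The H3 genes lay below the array median on all 6 arrays, and HTB10 below it on 3 of 6. Of these 7 genes, 0 were called in either direction, beside 0.974% of all loci. HTR10 (MGH3), the H3 of sperm cells, stood at 4.65, 4.83 and 3.84 in epiRIL12 and at 5.11, 5.06 and 4.92 in Col. HTB10 (AT5G02570) stood at 6.26, 6.80 and 6.42 in epiRIL12 and at 6.96, 7.16 and 7.07 in Col. For both genes every epiRIL12 value lay below every Col value. The differences were -0.59 for HTR10 (SE 0.25, limma adjusted p = 0.726) and -0.57 for HTB10 (SE 0.15, limma adjusted p = 0.358), and the values of HTR10 lay near the lower quartile of the arrays. HTR11 was apart in the other direction, at 5.82, 5.46 and 5.51 in epiRIL12 and at 5.20, 5.19 and 5.44 in Col, a difference of 0.32 (SE 0.13, limma adjusted p = 0.706). HTB10 overlaps the H2A.W gene HTA12 in the RefSeq gene table of TAIR10.1, and HTA12 had a difference of -0.05. HTR7 had the largest positive difference of these genes, 0.45 (SE 0.35), with values from 3.98 to 5.22 in epiRIL12 and from 3.75 to 4.59 in Col.

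Chaperones carry histones to and from DNA. None of 16 chaperone genes was called in either direction, beside 0.974% of all loci, so 0 calls in a list this short say little. Of their differences 10 were above and 6 below 0, with a median of 0.04, and 43.4% of all loci were above 0. FAS1 and FAS2, subunits of the CAF-1 complex that deposits H3.1 during DNA copying, had differences of -0.0016 (SE 0.10) and 0.05 (SE 0.10). HIRA, a chaperone of H3.3, had -0.05 (SE 0.10). The largest difference was that of KNL2, needed to load CENH3, at -0.49 (SE 0.25, limma adjusted p = 0.811). Its values were 4.90, 4.35 and 4.45 in epiRIL12 and 4.57, 5.26 and 5.35 in Col, below the array median on all 6 arrays. The next largest differences were those of ASF1B (0.14, SE 0.13) and ASF1A (0.10, SE 0.18), which hand H3 and H4 to other chaperones. Among 4 remodeller genes, 0 were called, beside the same 0.974% of all loci. The difference was 0.02 for DDM1 (SE 0.12), which in Arabidopsis helps place H2A.W. It was -0.18 for SWC6 (SE 0.09), -0.08 for PIE1 (SE 0.10) and 0.05 for ARP6 (SE 0.09), all of the SWR1 complex. SWC6 lay below the array median on all 6 arrays.

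Genes of DNA copying and division mark dividing cells, in which replication-dependent histones are made. Over all loci, 0.974% were called and 43.4% had a difference above 0, so 0 calls in short lists say little. None of 15 S-phase genes was called, with 8 differences above and 7 below 0 and a median of 0.02. CDC6, which licenses replication origins, had -0.28 (SE 0.11), and lay below the array median on all 6 arrays. TSO2, a ribonucleotide reductase subunit, had 0.24 (SE 0.14), and MCM2, of the replicative helicase, 0.20 (SE 0.11). None of 5 mitosis genes was called, all 5 with differences above 0 and a median of 0.15. The kinase gene AUR2 had 0.44 (SE 0.17), KNOLLE, which acts in cell plate formation, 0.24 (SE 0.23), and the kinase gene AUR1 0.15 (SE 0.14).

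**Figure D4:**
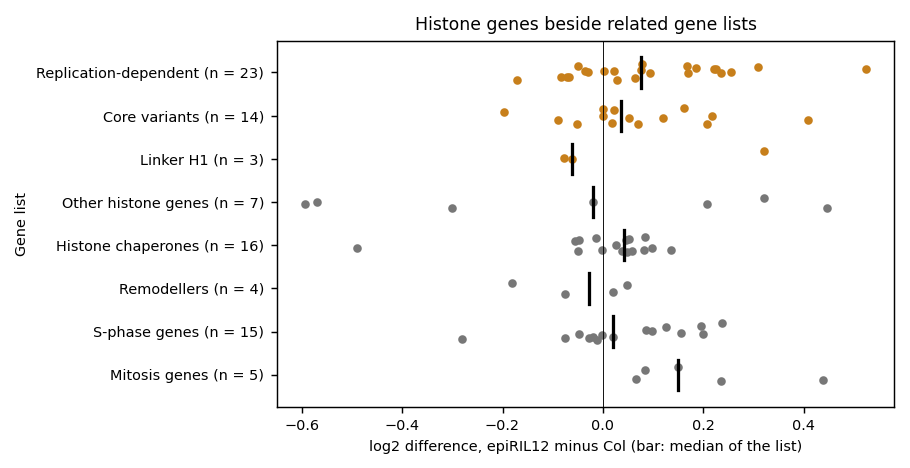
Differences (log2, epiRIL12 minus Col) of the measured histone genes (orange) and of related gene lists (grey). Each point is a gene, spread vertically for visibility, and black bars are medians; those of the 23 replication-dependent genes, 14 core variants and 15 S-phase genes are 0.08, 0.04 and 0.02.

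The nearest locus that differed between the genotypes was found for each histone gene. In the order of measured loci along each chromosome it was 4 to 2307 loci away, with a median of 332.5, against 174 over all loci and 220 over protein-coding loci. It was within 10 loci for 2 of 40 histone genes (5%), 11.3% of all loci and 6.00% of protein-coding loci. HTR3 lay 4 loci from AT3G27327, which was higher in epiRIL12 (log2 1.75, limma adjusted p = 0.0259), while HTR3 itself had -0.17. HTA11 lay 7 loci from AT3G54625, which was lower in epiRIL12 (log2 -0.88, limma adjusted p = 0.0444), while HTA11 had 0.12. HTA9 lay 13 loci from AT1G52850 (log2 4.95), with a difference of 0.05. On chromosome 5, AT5G59690, HTA6, HTB4 and AT5G59970 lie near each other. The differences there were 0.53 for AT5G59690, 0.26 for AT5G59970 and 0.02 for HTB4, and the interval of HTA6 was centred on 0. By chromosome the 40 genes number 10, 6, 8, 4 and 12 from chromosome 1 to chromosome 5. Annotated genes overlap 9 of the 40 in the RefSeq gene table, among them H1.1, H1.2, HTR3 and HTA12; since the hybridised target was double-stranded, signal of the strands cannot be told apart there.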

How the data were processed

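Per the labels' protocols, total RNA was cleared of rRNA, reverse transcribed from random primers, amplified and made into double-stranded biotin-labelled cDNA for Affymetrix arrays. The authors deposited log2 values for 29670 numbered loci on 6 arrays; their normalization, tools and genome build are not stated in labels or headers. The authors' deposited table gives locus names, log2 differences and p-values, whose test is not given. The tables were joined by row order, checked by the correlation over loci of both differences (Pearson's r 0.967 in place, 0.166 shifted by 1 row), which also gives the direction, epiRIL12 minus Col.

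All loci were fitted with limma 3.58.1 in R 4.3.3 (genotype as factor, no filter, no pseudocount), with Benjamini-Hochberg adjustment and calls under 0.05. The fit was tested on simulated data with planted differences larger than any histone gene had here, so that test does not speak to differences of their size. Errors are standard errors or SDs, with n = 3 arrays per genotype. Symbols, neighbours and overlaps came from the RefSeq gene table of TAIR10.1 (43 of 43 histone loci matched); classes follow general knowledge. Members and lists were chosen with earlier results of these data known. All histone genes could be named; values in every array are given for the H1, H3 and H2A variant genes, HTB8 and the 2 largest differences of each other class, and of other lists up to 3 members plus FAS1, FAS2, HIRA, DDM1 and HTR10 are named, mostly by their difference alone; HTR11 was added after its values were seen. Alternatives were quantile and median scaling, filters on the lowest 25% and the lower 50% of loci, a trended robust fit, a replicate block, leaving out arrays, other thresholds and the deposited p-values. Plots used matplotlib 3.10.9.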

Additional observations from a re-analysis of the deposited data

How the results depend on the processing

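No histone gene was called under any alternative run, and no member of the 5 related lists under those run for them, which leave out the other thresholds and the deposited p-values. The lowest limma adjusted p of a histone gene over these alternatives was 0.247. It belonged neither to HTR8, whose lowest was 0.304, nor to AT5G59690, whose lowest was 0.456. Of 517 histone gene differences under alternatives, 515 moved by no more than the gene's SD between replicates. For most of them no other outcome was possible, so the count says little about stability. The filters, the trended robust fit and the replicate block leave a difference unchanged. Leaving out 1 array cannot shift it past that SD. Only scaling, or leaving out both arrays numbered 3, could do so. The 2 that moved further came from the latter, where HTR9 (AT5G10400) had -0.01 and HTA4 (AT4G13570) -0.14. The median over core variants was 0.00302 to 0.158 with 1 array left out. Over all loci, the number higher in epiRIL12 was 92 without the lower 50% of loci, 141 without both arrays numbered 3 and 123 from the authors' deposited p-values, adjusted. The number lower was 13 under the replicate block, 10 to 19 with 1 array left out, 10 without both arrays numbered 3, 11 at an adjusted p under 0.01, 39 at 0.10 and 15 from the deposited p-values; the causes were not tested. Deviations of same-numbered arrays from their group means correlated at -0.04, -0.07 and 0.13 over loci, so the numbers were not taken as pairs. Replicate 1 of epiRIL12 correlated best with Col replicate 2 (0.113), and epiRIL12 replicate 2 with Col replicate 1 (0.118). The replicate block used the same-numbered arrays, and a block under another order was not tested. Without the replicate block 264 loci were higher and 25 lower in epiRIL12. Genes such as H1.3 and HTB8 lie below the array median, where no background level was given, and small differences may not be seen.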
